A study of Mus musculus with 4 samples.

Results

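Proteoglycans are proteins that carry long sulphated sugar chains. The 4 genes described here encode core proteins of such molecules, 3 at the cell surface (Gpc1 and Gpc4, the glypicans 1 and 4, and Sdc2, syndecan 2) and 1 in the matrix (Bgn, biglycan). They were chosen by symbol: every probe that the platform annotation names for 1 of them was taken, and a gene's probes were averaged on each array. All 4 were among the 6327 genes with a value on all 4 arrays, through 5 probes, 2 of them for Gpc4 and 1 for each of the others.

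Each of 4 two-colour cDNA arrays set RNA of NIH3T3 cells transfected with Erbb2 and overexpressing it against RNA of untransfected NIH3T3 cells with normal Erbb2 expression. NIH3T3 is an established line of mouse embryonic fibroblasts, and Erbb2 encodes a receptor tyrosine kinase. On arrays 1 and 2 the transfected line was labelled with Cy5, and on arrays 3 and 4 the dyes were swapped. The arrays are technical replicates of 1 sample per line, so errors and p-values cover the spread between hybridisations and not between cultures or transfections. The sources used here name no vector or promoter and do not say whether the transfected line is a clone or a pool. Values are log2 ratios, read as transfected over untransfected, which is the likely but unstated direction; all signs would turn together if it were wrong. A ratio holds no level, so the abundance of these RNAs and the fibroblast identity of the cells could not be read from the files. In RNA of whole cultures, fewer cells with a transcript and less of it per cell cannot be told apart.

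Glypicans are tied to the outer membrane by a lipid anchor, and syndecans cross the membrane with a short cytoplasmic tail. The heparan sulphate chains of both hold growth factors such as FGFs, WNTs and BMPs near their receptors. Biglycan is a small leucine-rich proteoglycan with chondroitin or dermatan sulphate chains, secreted by fibroblasts and bone cells, where it binds collagen fibrils and TGF-beta.

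The RefSeq promoter table held the region before the start of 2 members, Gpc4 and Bgn, which had the highest and the lowest mean of the 4. The 250 bases before each start are shown (GRCm38.p6; Gpc4 chrX:52164924-52165173, minus strand; Bgn chrX:73483351-73483600, plus strand), written in the direction of transcription, with matches to the GC box in capitals. Both genes lie on chromosome X.
Gpc4: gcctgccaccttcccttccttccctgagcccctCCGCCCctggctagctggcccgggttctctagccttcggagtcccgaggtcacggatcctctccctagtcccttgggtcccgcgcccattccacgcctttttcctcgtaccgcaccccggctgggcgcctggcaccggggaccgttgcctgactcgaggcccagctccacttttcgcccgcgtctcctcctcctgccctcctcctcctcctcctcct
Bgn: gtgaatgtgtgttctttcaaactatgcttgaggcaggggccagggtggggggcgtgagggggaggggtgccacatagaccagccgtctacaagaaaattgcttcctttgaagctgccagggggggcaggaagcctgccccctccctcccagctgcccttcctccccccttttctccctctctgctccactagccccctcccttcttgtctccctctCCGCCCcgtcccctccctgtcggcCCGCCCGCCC
The GC box, read as GGGCGG on either strand, had 1 match before Gpc4 and 3 before Bgn, of which the last 2 overlap. At least 1 match stood in 32.7% of the 32851 regions of this length in the table. The CCAAT box (CCAAT, in 33.8% of regions), the TATA box (TATAAA, 12.4%) and the AP-1 site (TGACTCA, 4.5%) were searched on both strands too, and these letters were in neither window. GC content was 68.4% for Gpc4 and 64.4% for Bgn, against a median of 52.4%. The Gpc4 region held 18 CG dinucleotides and that of Bgn 7, where the median was 6. Neither region was measured on the arrays.

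Bgn was lower in the transfected line on every array, and its mean over the 4 arrays was the lowest of all genes with a value on each. Both statements rest on how rows were matched to probe names and between arrays, as given below. The log2 ratio of Bgn was -7.44 on array 1, -3.77 on array 2, -1.99 on array 3 and -8.70 on array 4. The 4 values lie on the same side of 0 but spread widely, arrays 1 and 4 being far lower than arrays 2 and 3. The mean was -5.48 ± 3.13 (SD, n = 4 arrays), a 44.5-fold lower level. Among the 6327 genes it ranked 1 from the lowest on arrays 1 and 4, but 64 on array 2 and 470 on array 3. By the 4-array mean it ranked 1, ahead of Lox, the collagen cross-linking enzyme gene, at -5.18 ± 0.95 and Col1a1, a chain of type I collagen, at -4.91 ± 1.46. Its SD was larger than that of 99.4% of genes. The means of both dye orientations were close, at -5.61 (transfected line in Cy5) and -5.34 (in Cy3). Each of them averages 2 arrays that lie far apart, -7.44 with -3.77 and -1.99 with -8.70, so their closeness does not show that single arrays agree.

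The difference did not pass the test over all genes. Limma's 95% interval for Bgn ran from -8.55 to -2.40, with an unadjusted p of 0.00566 and a Benjamini-Hochberg adjusted p of 0.303. Limma called 0 of the 6327 genes, 0% (smallest adjusted p = 0.105), while 730 genes (11.5%) had an unadjusted p under 0.05. Of these, 474 were lower, 7.49% of all genes, and 256 were higher, 4.05%. The size of the difference depended on single arrays: the fitted mean was -3.80 without array 4 and -7.15 without array 3. Plain means of the remaining arrays were -4.40 and -6.64. The fit keeps the dye term, so the array left alone in its dye orientation weighs more than the others. This holds for every fitted mean given here without 1 array. The rank by fitted mean also depended on single arrays. It was 9 of 6536 genes without array 4, where Lox was lowest at -5.34, and 3 of 6420 without array 1.

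The deposited values keep a trace of how they were made, and it bears on Bgn. With a constant per array taken off and the sign of arrays 3 and 4 turned, every quotient under 0.3 (1305, 2385, 3062 and 813 values on arrays 1 to 4) was a whole number of thousandths within the rounding of the file. By the spacing of thousandths alone, 13.3% to 15.3% would be. The quotients were thus rounded to 3 decimals before the logarithm was taken. For Bgn the quotient was 0.004 on array 1, so rounding alone allows a log2 ratio between -7.64 and -7.27 there. On array 2 it was 0.05. On arrays 3 and 4 the quotient before turning, with the untransfected line as numerator under the same reading, was 2.12 and 344. The values of arrays 1 and 4 were the lowest on their arrays, among 19193 and 18085 values that were not capped.

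**Figure D1:**
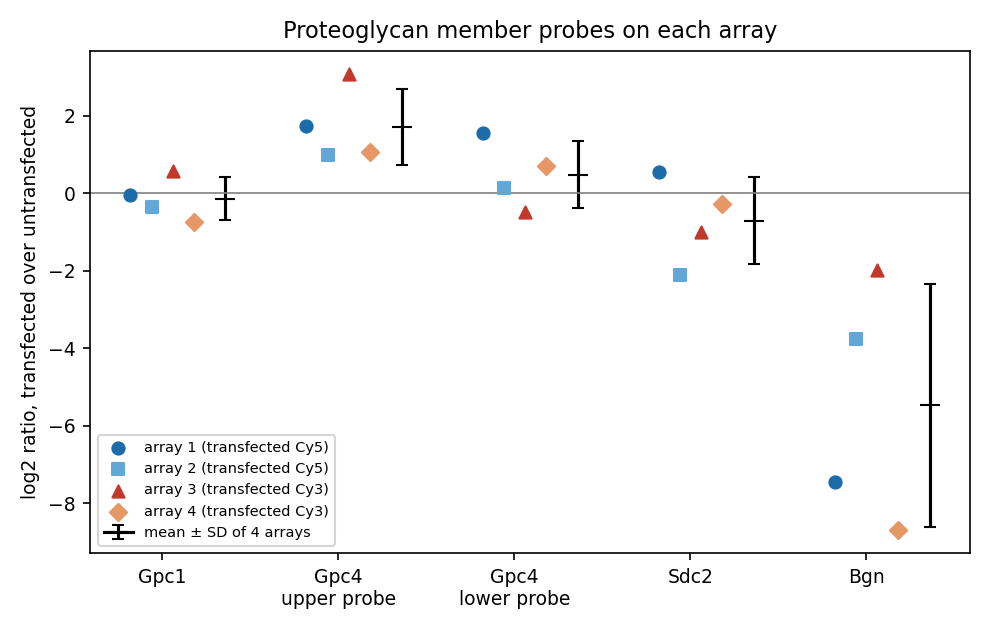
Log2 ratio (transfected over untransfected) of each member probe on the 4 arrays, with the mean and SD beside the points. All Bgn values lie below 0, from -1.99 to -8.70, all values of the upper Gpc4 probe lie above 0, and the other probes have points on both sides.

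Gpc4 was the member above 0 on every array. Its log2 ratio was 1.64, 0.57, 1.31 and 0.88 on arrays 1 to 4. The mean was 1.10 ± 0.47 (SD, n = 4), a 2.14-fold higher level. The means of both dye orientations were close, at 1.11 (transfected line in Cy5) and 1.09 (in Cy3). Each of them averages 2 probes, described below, whose differences between orientations ran opposite ways. Their closeness thus does not show that the probes agree. By its mean Gpc4 stood above 96.9% of genes. The limma interval ran from 0.28 to 1.93, with an unadjusted p of 0.0183, and the adjusted p of 0.382 did not pass.

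The 2 Gpc4 probes, which the annotation ties to the same transcript record, did not give the same ratio. The upper one in the table had 1.73, 0.996, 3.09 and 1.05 on arrays 1 to 4, a mean of 1.72 ± 0.97. The lower one had 1.56, 0.15, -0.47 and 0.71, a mean of 0.48 ± 0.86. They lay close together on array 1 and furthest apart on array 3, where their signs were opposite. The mean of the upper probe was higher with the transfected line in Cy3, and that of the lower probe with it in Cy5. The signs depend on the array constants: with these taken off, the lower probe had 0.42 on array 3, where the upper had 3.99. On array 2 it then had -0.40, where the upper had 0.45. Taking the constants off also moves the medians of arrays 2 and 3 away from 0, so these signs are not a check of the others. When each probe was fitted on its own by limma, the adjusted p was 0.355 for the upper and 0.645 for the lower.

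Gpc1 stayed close to 0. The other glypican had log2 ratios of -0.04, -0.34, 0.57 and -0.75 on arrays 1 to 4, with array 3 above 0 and the other arrays below. Its mean was -0.14 ± 0.56 (limma adjusted p = 0.886), near the median of -0.082 of all genes. Without array 4 the fitted mean was 0.19 and the plain mean 0.06. The limma interval, from -1.01 to 0.73, leaves room for a level between 0.496 and 1.66 times that of untransfected cells.

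Sdc2, a syndecan of mesenchymal cells, had a mean below 0 with a spread that covers it. Its log2 ratio was 0.56 on array 1, -2.10 on array 2, -0.99 on array 3 and -0.27 on array 4. Array 1 was above 0 and array 2 far below the others. The mean was -0.70 ± 1.13 (SD, n = 4; limma interval -1.99 to 0.58, adjusted p = 0.614). It depended on single arrays, with a fitted mean of -1.37 without array 1 and -0.04 without array 2 (plain means -1.12 and -0.24). On array 4 the value of Sdc2 was that of a 1:1 quotient, which 161 of the 18085 values shared, the commonest value of that array. Its quotients on arrays 1 and 3 were near 1:1 too, at 1.023 and 1.067. The values there, 0.56 and -0.99, thus lie close to the array constants of 0.522 and -0.899. With the constants taken off, Sdc2 had 0.03, -2.65 and -0.09 on arrays 1 to 3, so only the quotient of array 2 was far from 1:1. The medians of arrays 1 to 3 were 0.141, 0.025 and -0.167, away from their constants of 0.522, 0.548 and -0.899. A 1:1 quotient is thus not the typical value of these arrays, and by itself it does not mean no difference.

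**Figure D2:**
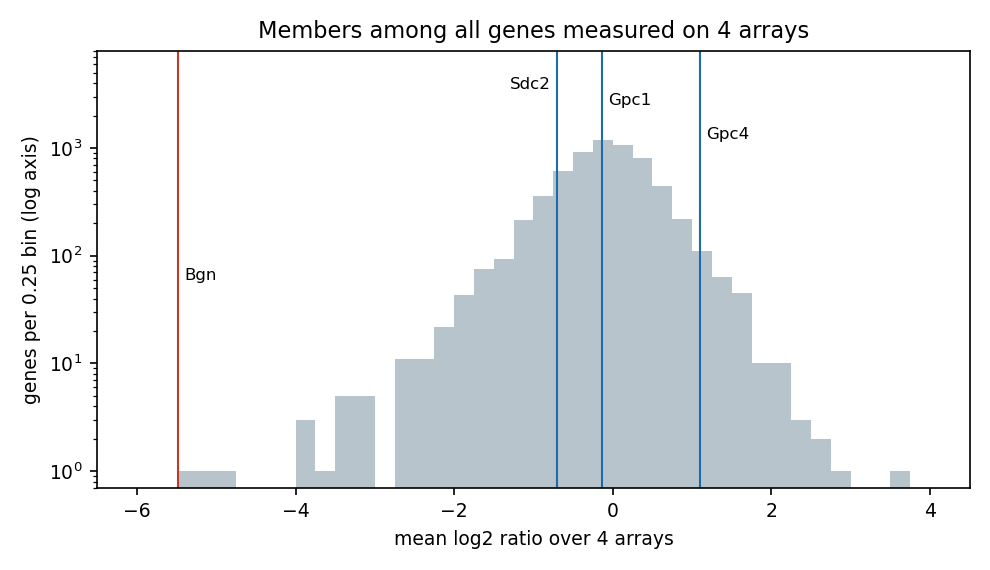
Number of genes per 0.25-wide bin of mean log2 ratio over 4 arrays, on a log axis, for the 6327 genes with a value on all arrays; lines mark the 4 members. Bgn (-5.48) is at the low end, Gpc4 (1.10) on the high side, and Sdc2 (-0.70) and Gpc1 (-0.14) lie within the bulk.

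In order of their means the members were Bgn, Sdc2, Gpc1 and Gpc4. Set against the cell surface members on the same array, Bgn was lower on each. The difference between Bgn and the mean of Gpc1, Gpc4 and Sdc2 was -8.16, -3.15, -2.28 and -8.65 on arrays 1 to 4, a mean of -5.56 ± 3.31 (SD, n = 4). That 3-gene mean was itself 0.09 ± 0.57, so nearly all of the difference came from Bgn. Against Sdc2 alone, the next in order, Bgn differed by -8.00, -1.67, -0.99 and -8.43, which is narrow on arrays 2 and 3. Gpc1 and Sdc2 differed by 0.56 ± 1.27 (Gpc1 minus Sdc2), with both signs among the arrays, so their order is within the spread. Gpc4 exceeded Gpc1 on every array, by 1.68, 0.92, 0.74 and 1.63, a mean of 1.24 ± 0.49. No p is given for these differences, because the genes were chosen with earlier results of these data known.

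The probes of Bgn, Gpc1 and Sdc2 and the lower Gpc4 probe lie in rows where array 1 and arrays 2 to 4 are out of step in the deposited table, so their values rest on how the rows were matched. In the 500 rows on each side of a probe, the ratios of array 1 were correlated with those of arrays 2 to 4 at offsets from -3 to 6 rows. Across these rows, which are not independent replicates, the mean Pearson r was highest at the offset used for that probe. It was 0.12 around the upper Gpc4 probe at 0 rows, 0.118 around Gpc1 and 0.095 around Sdc2 at 3 rows, and 0.116 around the lower Gpc4 probe and 0.094 around Bgn at 4 rows. At every other offset it was 0.063 or less. Even at its highest, r was low for arrays of the same RNA. The peaks come from the same values that were matched, so they are not independent support for the offsets. The rows around the lower Gpc4 probe and Bgn are mostly shared, so these 2 peaks are not separate checks. Read 1 row off, arrays 2 to 4 gave -0.40, -0.22 and 0.02 for Bgn (offset of 3 rows). Probe names were kept on the rows of array 1. The correlations give only the shift between the arrays and cannot show which arrays match the annotation. At the named row as deposited, array 2 had no value for Bgn, and arrays 3 and 4 gave -0.62 and 0.39. Which arrays hold the named rows was not tested.

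**Figure D3:**
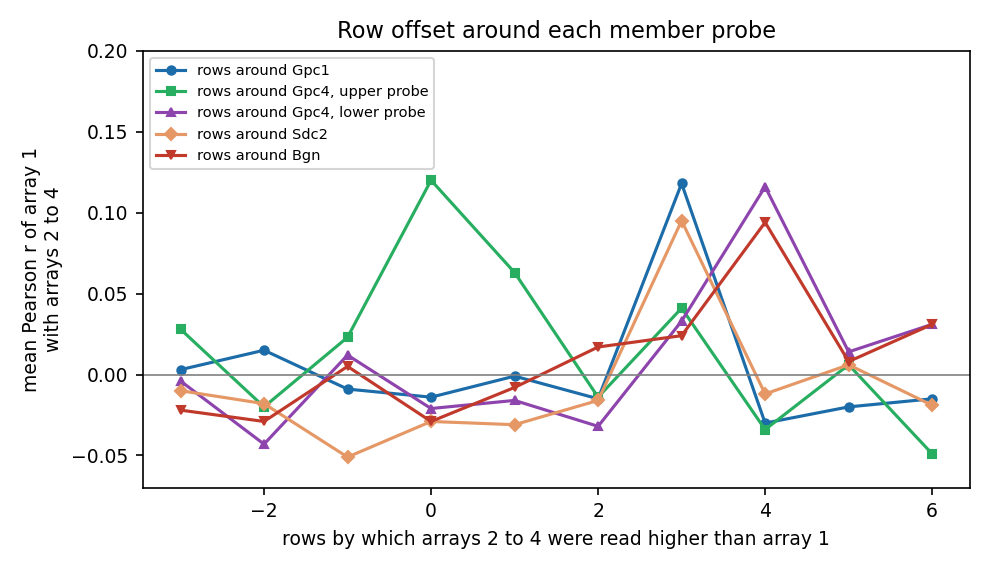
Mean Pearson r of array 1 with arrays 2 to 4 over the 500 rows on each side of a member probe (y axis), against the number of rows by which arrays 2 to 4 were read higher (x axis). Each line peaks at 1 offset: 0 rows for the upper Gpc4 probe, 3 for Gpc1 and Sdc2, and 4 for the lower Gpc4 probe and Bgn.

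Other core proteins of the cell surface were measured for 5 further genes of a list of 15, and 0 of the list passed the test over all genes. Cd44, the hyaluronan receptor that can carry such chains, was above 0 on all arrays, at 0.49, 1.32, 1.52 and 2.15, a mean of 1.37 ± 0.68 (limma adjusted p = 0.315). Of the 8 measured genes of the list, members included, 2 (Cd44 and Gpc4) were above 0 on all arrays, where 9.58% of all genes were, and 0 were below 0 on all arrays. Their median log2 ratio was 0.30, against -0.08 for all genes. Members and list were chosen with earlier results of these data known, so these counts are not independent evidence.

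Of 28 listed matrix and secreted core proteins, 7 were measured on all arrays, and 4 of them were below 0 on all 4, where 13.0% of all genes were. Beside Bgn these were Agrn, Esm1 and Smoc2. Agrn encodes agrin, a heparan sulphate proteoglycan of basement membranes, and had -1.14, -4.13, -0.32 and -2.31, a mean of -1.97 ± 1.66 and a fitted mean of -1.22 without array 2. Esm1, the secreted proteoglycan endocan, had -0.77 ± 0.75 (fitted -0.33 without array 2 and -1.20 without array 1). Smoc2, a matrix protein related to Sparc, had -0.73 ± 0.73. It was listed with the core proteins but is not an established proteoglycan, and the counts given here include it. Of the 6 genes other than Bgn, 3 were below 0 on all arrays. Their median was -0.62, and their range was -1.97 to 0.58. The list was chosen with earlier results of these data known, so its direction is not independent evidence. Over all genes 0 of the 7 passed limma's adjusted test, and 3 were lower at an unadjusted p under 0.05, where 7.49% of all genes were.

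**Figure D4:**
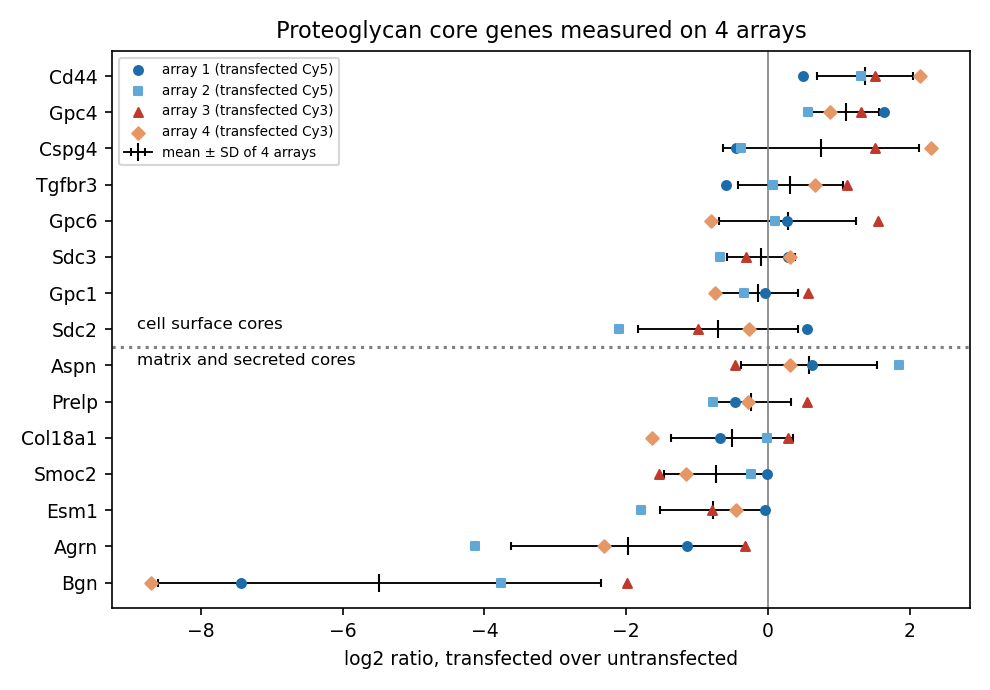
Log2 ratios (x axis) of the 8 cell surface and 7 matrix or secreted genes that were listed as core proteins and measured on 4 arrays. Symbols are arrays, and black bars the mean ± SD. Bgn (-5.48 ± 3.13) is the lowest, and Cd44 (1.37 ± 0.68) and Gpc4 (1.10 ± 0.47) are the highest.

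Dcn, which encodes decorin, the closest relative of biglycan, had a value on 3 arrays and was not tested. Its log2 ratio was 1.07 on array 1, -0.07 on array 2 and 1.01 on array 3. On these arrays Bgn was at -7.44, -3.77 and -1.99, so every Dcn value lay above the Bgn value of the same array. Most genes lay above Bgn there too, as it ranked 1, 64 and 470 from the lowest among 6327 genes. Other matrix cores with values on fewer arrays went both ways. Acan (aggrecan) had -0.48, -1.79 and -1.48 on arrays 1, 3 and 4, Bcan (brevican) -4.22 and -4.86 on arrays 3 and 4, and Ogn (osteoglycin) -3.12 on array 1. Fmod (fibromodulin) had 2.24, -4.81 and -0.46 on arrays 2 to 4. Chad, Spock1 and Spock2 had 3 values each, mostly above 0, the lowest being -0.30 (Chad). Sdc1, the epithelial syndecan, also had 3 values, at -0.29, 0.16 and 0.28 on arrays 1, 2 and 4. The genes of this paragraph were named after their values were seen.

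Of 26 listed genes for proteins that biglycan binds, acts on or is processed with, 9 were measured. The mean was below 0 for 8 of them, as it was for 3550 of the 6327 genes, and 4 were below 0 on all arrays, where 13.0% of all genes were. The exception, with a mean above 0, was the fibrillar collagen gene Col3a1, at 0.89 ± 1.36 (array 1 at -0.51). Col1a1 and Col1a2 encode the chains of type I collagen, and Col1a2 had -4.31, -3.41, -2.82 and -2.91, a mean of -3.36 ± 0.69. Col6a2, a chain of the type VI collagen that biglycan binds, had -1.55 ± 1.17 (fitted -0.94 without array 3). Pcolce, the enhancer of procollagen C-proteinase, had -1.36 ± 0.58. The median of the 9 genes was -1.36, against -0.08 for all genes. By limma 0 of them passed over all genes, the smallest adjusted p being 0.105, and 5 were lower at an unadjusted p under 0.05, against 7.49% of all genes. Parts of this list had been seen to be low in an earlier look at these data, so its direction is not independent evidence.

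Syndecans are bound by cytoplasmic adaptors and cut by proteases outside the cell. Of 18 listed genes of these adaptors, proteases and an inhibitor, 11 were measured, 5 were below 0 on all arrays and 0 above, where 13.0% and 9.58% of all genes were. Timp3, an inhibitor of metalloproteinases that binds sulphated chains, had values from -5.51 to -2.27, a mean of -3.97 ± 1.33. The membrane protease gene Mmp14 had -1.93 ± 1.68, with a fitted mean of -1.27 without array 4. The matrix protease genes Adamts1 and Mmp2 had -1.20 ± 0.81 (fitted -0.75 without array 1) and -1.01 ± 0.61. Cask, whose product binds the tail of syndecans, had -1.19 ± 1.17, with array 3 the lowest at -2.72. The median of the list was -1.01. The list was chosen with earlier results of these data known, so its direction is not independent evidence. By limma 0 passed over all genes (smallest adjusted p = 0.161), and 6 were lower at an unadjusted p under 0.05, against 7.49% of all genes.

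Of 58 listed enzymes and transporters that build and sulphate the chains, 14 were measured, 6 with a mean below 0 and 8 above. Their median was 0.07, and 3 were below 0 on all arrays and 1 above, near the 13.0% and 9.58% of all genes. Ust, which sulphates uronic acids of chondroitin and dermatan sulphate, had 1.42, 1.45, 0.46 and 0.53, a mean of 0.97 ± 0.54. The heparan sulphate 3-O-sulphotransferase genes Hs3st1 and Hs3st3b1 had -0.79 ± 0.60 and -0.65 ± 0.39. Ugdh, which makes the UDP-glucuronate used in the chains, had -0.24, -0.92, -4.90 and -0.16, so its mean of -1.56 ± 2.25 rested on array 3 (fitted -0.37 without it and -2.74 without array 4). Its plain mean without array 4 was -2.02. Over all genes 0 passed (smallest limma adjusted p = 0.381). Breakdown and remodelling enzymes were measured for 3 of 21 genes, none of which kept 1 sign on all arrays.

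Ligands and receptors that bind heparan sulphate were measured for 10 of 40 genes, with a median of 0.04. Pdgfa, a platelet-derived growth factor chain, had 0.42, 0.96, 4.07 and 0.33, a mean of 1.44 ± 1.77 with array 3 far above the others (fitted 0.51 without it and 2.38 without array 4). Its plain means without these arrays were 0.57 and 1.82. The FGF receptor gene Fgfr3 had 0.92 ± 1.16, with a fitted mean of 0.28 without array 3 and 1.56 without array 4 (plain means 0.35 and 1.21). Fgfr1 had -0.99 ± 1.49, with a fitted mean of -0.27 without array 2 and -1.71 without array 1 (plain means -0.25 and -1.21). The ligand gene Bmp7 had -0.71 ± 0.71, with -0.36 without array 3. By limma 0 passed over all genes, with a smallest adjusted p of 0.47.

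By Euclidean distance over the 4 arrays, the genes nearest to Gpc4 were Palm2 (distance 0.31), Frmd4a (0.54) and Btg1 (0.56), with means of 1.14, 1.27 and 1.08. Those nearest to Gpc1 were Depdc1b and Tgtp1 (0.19 each) and Bcap31 (0.29). Nearest to Sdc2 were Dmgdh (0.31), Vapb (0.43) and Anxa6 (0.46). Dmgdh had the same order of arrays as Sdc2, at 0.68, -1.89, -0.82 and -0.32. Bgn had no close neighbour: the nearest, Col1a1, lay at a distance of 5.93, followed by Fn1 (fibronectin) at 6.09 and the prostacyclin synthase gene Ptgis at 6.42. Unlike Bgn, Col1a1 was lower on array 3 (-5.79) than on array 4 (-4.32). With 4 arrays of the same RNA these distances describe hybridisations only.

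The annotation names 0 probes for Erbb2, and the transfected gene itself was not analysed here as a check of the labels. Of 35 listed markers of epithelial, leukocyte, endothelial, muscle and fat cells, 14 were measured, with a median log2 ratio of 0.09 and a range of -1.17 to 0.86, and 0 passed limma over all genes. Of 9 fibroblast markers 7 were measured, with a median of 0.24 and a range of -4.91 (Col1a1) to 0.89 (Col3a1). The part of other cells in the values of the members was not tested.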

How the data were processed

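The authors deposited 1 log2 ratio per spot and array. The sources used here give no software, background correction, normalization or direction for them. The labels' protocols give silica-column RNA and indirect dye labelling; parts of that text speak of organs and pooled animals. Of 20355 probes, 14030 had 1 gene symbol in the platform annotation, 5 several, and 6320 were unnamed here; 13994 matched a RefSeq gene (GRCm38.p6) by identifier.

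Rows 1 to 6000 were used as deposited. In 2 later blocks arrays 2 to 4 were read 3 and 4 rows higher, and probe names were kept on the rows of array 1. Left out were 2300 rows, along with capped ratios (beyond 15 either way: 63, 120, 121 and 114 values on arrays 1 to 4). Values of 1 gene's probes were averaged within an array. Genes with a value on all 4 arrays were fitted with limma 3.58.1 in R 4.3.3 (lmFit, eBayes; mean and dye term), tested on simulated data, with Benjamini-Hochberg adjustment and a threshold of 0.05. Arrays were not centred; their medians over the matched rows were 0.141, 0.025, -0.167 and -0.217. The number of arrays limits precision; 94.6%, 81.0%, 76.8% and 89.4% of spots had a value.

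Listed genes were named where all 4 arrays had 1 sign, up to 5 per list by size of mean. Members and lists were chosen with earlier results of these data known. Alternatives covered the dye term, centring, scaling, probes, missing values, caps, rows and each array left out.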

Additional observations from a re-analysis of the deposited data

Results flagged for a closer look

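Among 28 sets of 4 array values checked, 3 had 1 array far from the others, measured as the gap to its neighbour over the whole range. They were Fgfr1 (0.925; array 2 at -3.23), Ugdh (0.840; array 3 at -4.90) and Pdgfa (0.831; array 3 at 4.07). None was a member gene. Chance flags about 1 set in 20, and many of these genes had been chosen for a large mean, so the count cannot be set against chance.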

How the results depend on the processing

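The choices of the first 6000 rows alone and of taking off the array constants were made after the data were seen; the others were planned. Bgn stayed below 0 in all 14 alternatives that gave it a value (-7.15 to -2.01, limma adjusted p 0.191 to 0.864). Gpc4 stayed above 0 in 18 (0.48 to 1.72, limma adjusted p 0.3 to 0.897). These counts are not separate support. With 1 probe and 4 values, choices on the dye term, probes, missing values and caps left Bgn at -5.48. Its -2.01 came from the offset 1 row smaller, where arrays 2 to 4 read other rows than in the main setting (-0.40, -0.22 and 0.02). The upper Gpc4 probe has no offset to change. No member passed limma's adjusted test in any alternative. Gpc1 turned to 1.20 with the offset 1 row smaller, and without 1 array ranged from -0.47 to 0.19. Sdc2 turned to 0.32 and 0.40 with the offset 1 row smaller and larger. These settings read other rows than the main one, and the offset of the main setting has no independent support. The difference between Bgn and the cell surface mean kept its sign in 10 alternatives (-6.65 to -2.83). Its -2.83 came from the offset 1 row smaller, which reads other rows than the main setting. With rows as deposited or the offset 1 row larger, Bgn lacked a value on array 2 and had no fit, and the first 6000 rows hold a probe of Gpc4 alone. Limma's count of 0 called genes became 3 after scaling arrays to 1 spread, 3 for medians of probes, 6 for probes taken singly and 6 in a model with no dye term; the cause was not tested. Genes at an unadjusted p under 0.05 (730) numbered 276 in the first 6000 rows, where fewer genes are tested, and 355 to 981 without 1 array. Centring moved the median of all genes from -0.082 to -0.028. No paired analysis was possible because all arrays compare the same pair of samples. Signal over background is unknown, so dim spots could not be set apart.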
